A study of Mus musculus with 28 samples.

Results

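Fibroblast-derived ciEPCs were compared with embryonic stem cells over 11 of the 28 RNA-seq libraries of a mouse series on chemical reprogramming of fibroblasts into the endoderm lineage. ciEPC is the labels' name for the reprogrammed cells. The 9 ciEPC libraries came from mouse embryonic fibroblasts (MEFs) taken at E13.5. They cover 2 culture series: passages 2, 3, 4, 6, 10 and 22 of series 1, and passages 1, 5 and 10 of series 2. The 2 embryonic stem cell (ESC) libraries came from OG2 cells at passage 5. All 11 carry the same Oct4-GFP transgenic allele, from CBA/CaJ X C57BL/6J carriers mated to 129Sv/Jae females, so the reporter and the labelled strain do not separate the groups. A further library of series 2, at passage 22, is labelled as ciEPC and was left out by the rule that set the comparison. The comparison addresses whether the chemical route gave cells with the transcripts of pluripotent stem cells or of endoderm.

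Mouse embryonic stem cells are kept in self-renewal by a circuit of transcription factors built around OCT4 (Pou5f1), SOX2 and NANOG, which hold the genes of other lineages silent. In the blastocyst the inner cell mass divides between the NANOG-bearing epiblast, from which stem cells are derived, and the primitive endoderm, which answers FGF4 from the epiblast and turns on GATA6, GATA4, SOX17 and PDGFRA. Primitive endoderm gives the visceral endoderm, an absorptive epithelium around the embryo, and the parietal endoderm, which secretes the thick basement membrane of the yolk sac. Definitive endoderm, the source of liver, pancreas and gut, arises later and shares several of these factors, but is marked by CXCR4 and CER1 and passes through a NODAL-dependent stage.

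Expression was measured as reads assigned to genes. The 9 ciEPC libraries held 1439670 to 3352758 counts over 15375 to 17428 detected genes, and the ESC libraries held 2192887 and 6123624 counts over 16066 and 18276 detected genes. Levels below are CPM, counts scaled to a common library total after TMM normalization. The ciEPCs were made from fibroblasts and not from ESCs. Words such as rose, fell and from below therefore name differences between ciEPCs and ESCs, not changes over time. The tests used 2 summed ciEPC samples, 1 per series, against the 2 ESC libraries. The labels do not say whether the 2 ESC libraries, or the passages of a series, are separate cultures. The p-values rest on a spread within groups that was estimated in 1 fit over 20 samples of 9 groups. They do not measure the spread of the compared samples alone, nor that between known separate cultures. A read or fragment length of 50.5 to 50.6 bases is implied by the deposited gene lengths for the ciEPC libraries and of 74.3 and 74.5 bases for the ESC libraries, and this difference and the cell type cannot be told apart in this comparison. MNF-derived ciEPCs (2 libraries at passages 2 and 3, from neonatal dermal fibroblasts of CBA/CaJ X C57BL/6J background; a second label field of these libraries names MEFs) have the ESC length, 74.5 bases, and their values are given beside the main ones for that reason.

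Several libraries stood apart. The left-out passage 22 library held Pou5f1 at 1224 CPM and Sox17 at 0.491 CPM, against its ciEPC label. Of the genes that differed between ciEPCs and ESCs, its value lay nearer to the ESC mean for 2910 of 3314 higher genes and 2288 of 2612 lower ones, although its implied length was that of the ciEPC libraries (50.5 bases). It did not match the ESC libraries in its Y-linked transcripts. The 4 Y-linked genes Ddx3y, Eif2s3y, Uty and Kdm5d summed to 0 CPM there and to 116 and 142 CPM in the ESC libraries. Xist, the RNA that silences one X chromosome in female cells, was low in both, at 1.47 CPM in that library and at 3.23 and 16.8 CPM in the ESCs. Among the 9 ciEPC libraries the same Y-linked sum was 63.7 to 159.6 CPM in 8 and 0.374 CPM in series 1 passage 22, where Xist reached its highest level, 3305 CPM, against 392 to 1410 CPM in the other 8. Series 1 passage 2 held fibroblast collagen transcripts: Col1a1 was at 129 CPM there, at 0 to 5.74 CPM in the other 8, and at 15140 to 19950 CPM in the 3 MEF libraries.

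**Figure D1:**
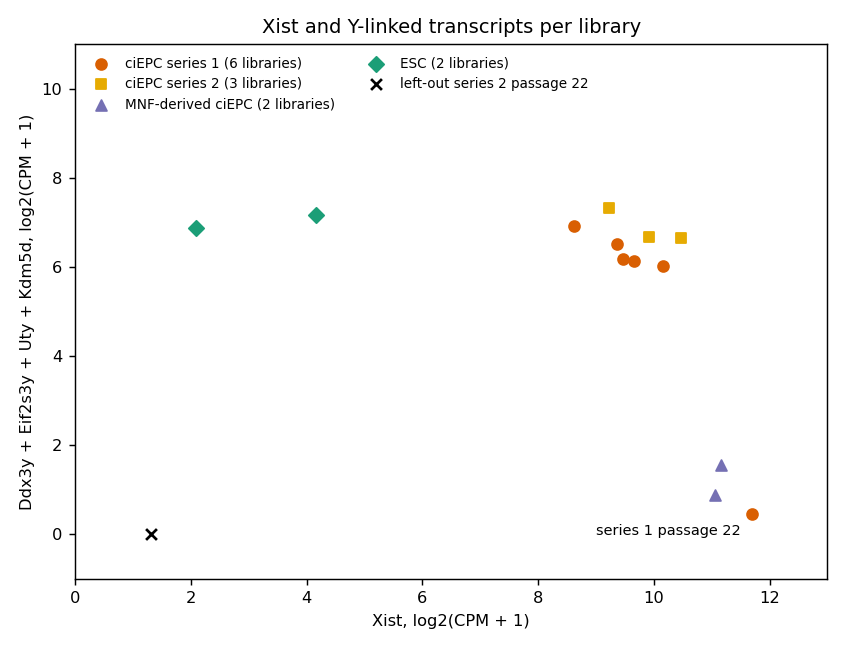
Xist (x axis) against the sum of the Y-linked genes Ddx3y, Eif2s3y, Uty and Kdm5d (y axis), both as log2(CPM + 1), 1 point per library. The 8 ciEPC libraries with Y-linked reads lie between 63.7 and 159.6 CPM with Xist at 392 CPM or more, series 1 passage 22 has the most Xist and almost no Y-linked reads, both ESC libraries have Y-linked reads with little Xist, and the left-out library has neither.

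Of 16056 genes tested, 3314 (20.6%) were at least 2-fold higher in the ciEPCs and 2612 (16.3%) at least 2-fold lower, at an adjusted p under 0.05 (edgeR quasi-likelihood test). The counts of called members given for gene lists below are to be read beside these shares. All 9 ciEPC libraries lay above both ESC libraries for 2725 of the higher genes, and all 9 lay below both for 2427 of the lower genes. Over all 16056 genes tested, called or not, the same was so for 3680 and 3837 genes. No read fell on 415 of the higher genes in either ESC library, and no ciEPC read on 127 of the lower genes. With passage 2 of series 1 left out the counts were 3161 higher and 2751 lower, and with the left-out passage 22 library included they were 2990 and 1964. The median log2 fold change over all genes tested was 0.065. In the same fit the MNF-derived ciEPCs had 2962 genes higher (18.4%) and 2897 lower (18.0%) than the ESCs.

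**Figure D2:**
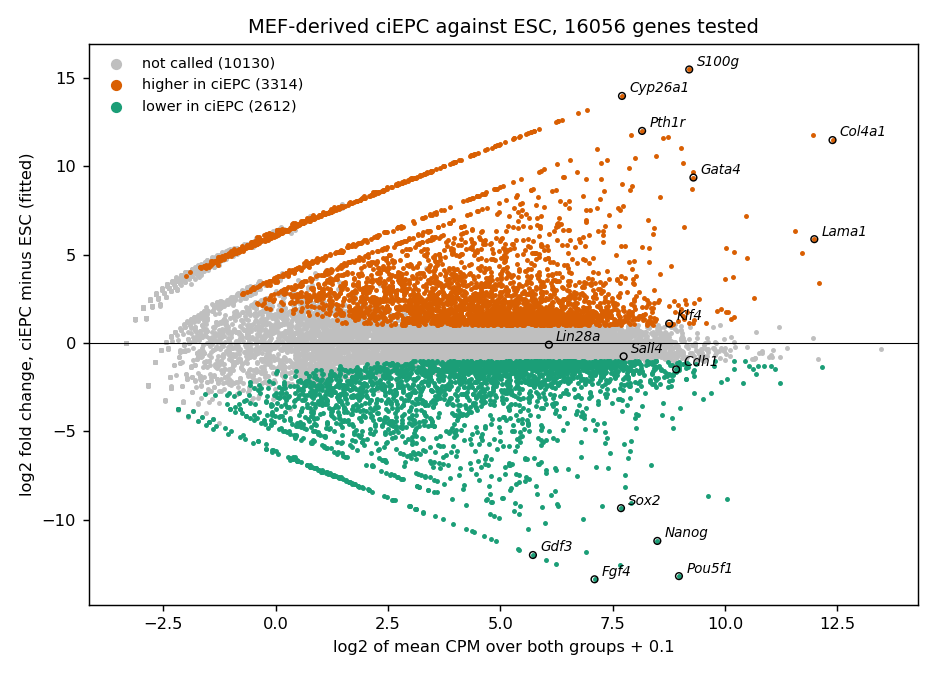
Log2 fold change of ciEPCs against ESCs (y axis, fitted) against the mean level of each gene over both groups (x axis, log2 of CPM + 0.1), 16056 points. The 3314 genes called higher and the 2612 called lower are coloured, and named points mark pluripotency genes at the bottom and endoderm and basement membrane genes at the top.

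The pluripotency circuit was at or near zero in the ciEPCs. Pou5f1 (chr17:35506018-35510772, plus strand), which encodes OCT4, had 0 CPM in the median ciEPC library and 0.374 CPM in the highest, against 1010 and 999 CPM in the ESCs. That is a ratio of 12170 with a 95% counting interval of 3368 to 100500, from 2 ciEPC reads in all 9 libraries (adjusted p = 8.6e-08). Nanog (chr6:122707489-122714633, plus strand), the factor that separates epiblast from primitive endoderm, reached at most 1.15 CPM in a ciEPC library and stood at 606 and 829.7 CPM in the ESCs. It fell by 11.20 ± 0.53 (SE) on the log2 scale (adjusted p = 1.7e-09). Sox2, the DNA-binding partner of OCT4, was at 0 to 1.21 CPM (median 0.697) against 363 and 456 CPM and fell by 9.34 ± 0.63 on the log2 scale. Of 14 tested core pluripotency factors, 11 were lower, none was higher, and the median log2 fold change was -8.18. Tdgf1, the NODAL co-receptor CRIPTO, and Gdf3, a NODAL-related ligand, belong to the 12 largest falls of the whole comparison. Gdf3 had no read in any of the 9 libraries and 103 and 107 CPM in the ESCs, so it was at least 859-fold lower (against a floor of 3 counts over the ciEPC group).

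The start region of Nanog is shown because the circuit acts there: it holds a composite of an octamer and a SOX element, the pair of sites at which OCT4 and SOX2 bind side by side. Its 250 bases before the most upstream of its 2 listed starts (RefSeq, GRCm38.p6, chr6:122707239-122707488, plus strand, 5′ to 3′) read as follows, with the composite in capitals:
Nanog: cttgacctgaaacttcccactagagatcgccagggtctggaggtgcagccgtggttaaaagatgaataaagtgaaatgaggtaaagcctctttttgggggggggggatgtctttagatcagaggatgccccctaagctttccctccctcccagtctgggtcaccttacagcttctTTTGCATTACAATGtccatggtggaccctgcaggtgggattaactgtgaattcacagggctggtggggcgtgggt
The letters searched were CATTGT, 1 base of any kind and ATGCAAA in a row, on both strands, in the 250 bases before each listed start of the 11658 tested genes that have one in the table. Nanog was the 1 gene with an exact match, a share of 0.00858%. Composites that differ in any of the other letters were not counted, so this share does not set Nanog apart from other genes. The octamer alone, ATGCAAAT, was in the windows of 1.82% of the higher genes, 2.05% of the lower genes and 1.66% of all 11658. A match in these bases describes the letters and says nothing of binding.

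The other 3 core factors did not pass the test. Sall4, a zinc finger factor that primitive endoderm also uses, was at 111 to 231 CPM (median 164) against 254 and 282 CPM, a log2 fold change of -0.75 ± 0.42 (adjusted p = 0.15). Lin28a, which blocks let-7 microRNA maturation, was at 35.5 to 104 CPM (median 72.0) against 80.4 and 59.7 CPM, and the groups overlapped (log2 fold change -0.10 ± 0.35, adjusted p = 0.85). Trim71, a let-7 target, was at 92.1 to 239 CPM against 274 and 264 CPM. In the MEF libraries Sall4 lay between 0 and 0.335 CPM and Lin28a between 0 and 0.335 CPM, below every ciEPC library for both genes.

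The naive factors, which hold stem cells in the ground state, were mostly lower as well. Of 16 tested, 13 were lower and 2 were higher (median log2 fold change -6.56). Esrrb, a nuclear receptor of the naive circuit, was at 0 to 13.6 CPM against 509 and 784 CPM and fell by 6.88 ± 0.65 on the log2 scale. Tfcp2l1 fell by 4.80 ± 0.53, and Zfp42 (REX1), a widely used stem cell marker, fell by 9.22 ± 0.82. The exceptions were Klf4 and Klf5, Krüppel-like factors that epithelia use as well. Klf4 was at 409.9 to 1045 CPM (median 587) in the ciEPCs and at 269 and 282 CPM in the ESCs, with no overlap, a log2 fold change of 1.10 ± 0.42 (adjusted p = 0.04). The Klf4 call was lost with RLE scaling (1.02, adjusted p = 0.053), with a minimum count of 50 (1.03, adjusted p = 0.0502), with the left-out passage 22 library included (0.99, adjusted p = 0.081) and without either ESC library or series 1 (0.75 to 1.14, adjusted p = 0.13 to 0.25). The Klf5 call was lost with passages 1 to 5 only (0.69, adjusted p = 0.14), with the 9 libraries as separate samples (0.99, adjusted p = 0.058), with the left-out library included (0.89, adjusted p = 0.060) and without either ESC library or series 2 (0.73 to 1.21, adjusted p = 0.076 to 0.19). Klf2, their naive-state relative, went the other way, from 439 and 463 CPM in the ESCs to a ciEPC median of 4.0 CPM (fell by 6.53 ± 0.56 on the log2 scale). Tbx3 was the 1 naive factor that was not called.

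**Figure D3:**
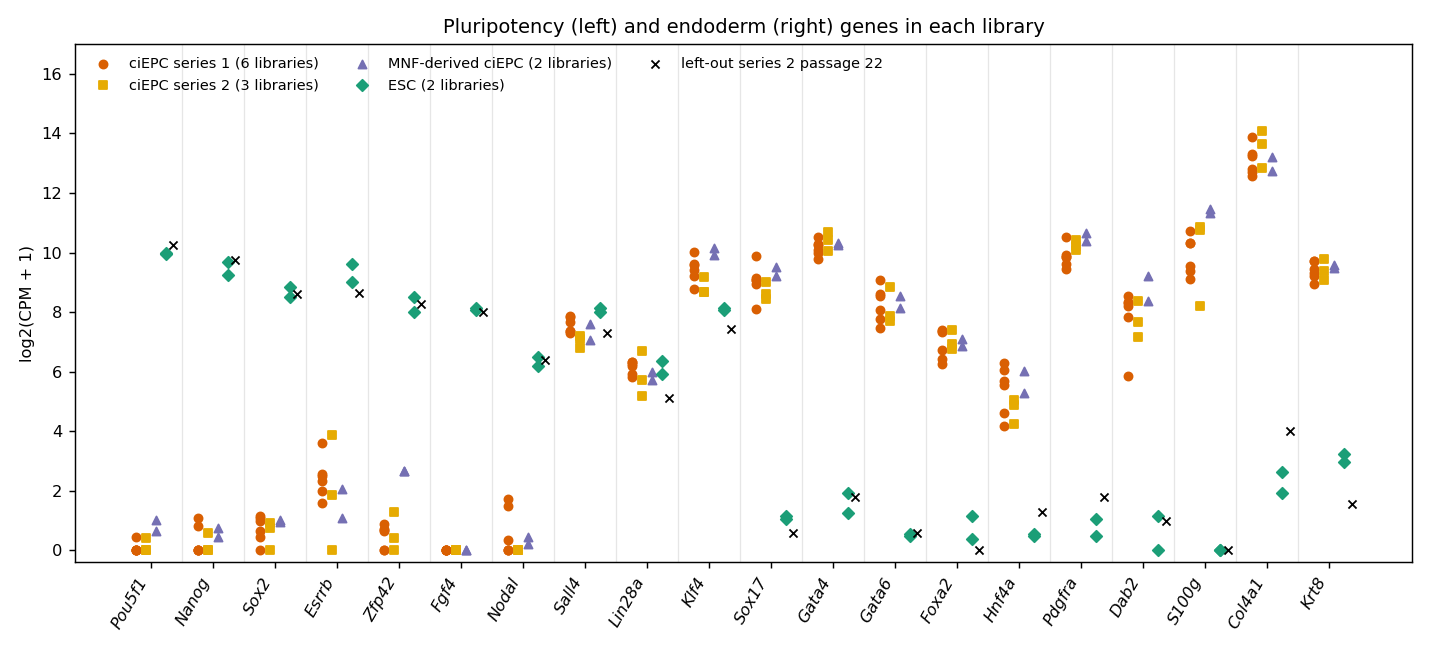
Level of 20 genes in each library as log2(CPM + 1) (y axis): 9 ciEPC libraries by series, 2 ESC libraries, 2 MNF-derived ciEPC libraries and the left-out passage 22 library. For Pou5f1, Nanog, Sox2 and the other genes up to Nodal every ciEPC library lies far below both ESC libraries, Sall4 lies just below them, Lin28a overlaps with them and Klf4 lies above them, and for the endoderm genes on the right every ciEPC library lies above both ESC libraries, while the left-out library lies with the ESCs.

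Genes of the next stage of pluripotency and of the germline were not higher in the ciEPCs. Of 11 tested formative and primed epiblast genes none was higher and 5 were lower (3 without ESC library 1 or series 2). Fgf5, the marker of formative cells, had at most 0.287 CPM in a ciEPC library and 0 CPM in both ESC libraries, and Otx2, which starts the exit from the naive state, had no ciEPC read against 8.08 and 29.9 CPM. Dnmt3b, the de novo methyltransferase of this stage, was not called, at 15.9 to 167 CPM (median 97.7) against 130.5 and 98.1 CPM (adjusted p = 0.51). Of 13 tested germline genes that ESCs transcribe at low levels, 12 were lower and none higher (median log2 fold change -7.27). A listed gene with few reads in the other groups entered the test through the ESCs. For such genes a lower call was close to fixed in advance, so this count describes the list only. Dppa3 (STELLA), a maternal factor that protects methylation in the zygote, had no ciEPC read and 87.7 and 83.6 CPM in the ESCs, and was at least 686-fold lower. The summed level of the 19 germline genes listed was 2.53 to 15.9 TPM (the deposited scale per transcript length and library total) in ciEPC libraries and 298 and 334 TPM in ESCs.

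Endoderm transcription factors took the opposite course. Of 20 tested, 15 were higher and 1 was lower (median log2 fold change 5.72; in MNF-derived ciEPCs 14 higher, 2 lower, median 5.67). Gata4 (chr14:63198922-63271692, minus strand), the zinc finger factor of primitive endoderm and of later gut and heart, was at 881 to 1668 CPM (median 1233) in the ciEPCs and at 2.83 and 1.42 CPM in the ESCs. All 9 libraries lay above both ESC libraries, and the fitted fold was 656 (log2 9.36 ± 0.76, adjusted p = 1.4e-07). Sox17 (chr1:4490931-4497354, minus strand), an HMG-box factor of primitive and definitive endoderm, was at 271 to 933 CPM (median 514) against 1.21 and 1.10 CPM. Its log2 fold change was 8.66 ± 0.78, and that of Gata6, the earliest primitive endoderm factor, was 9.29 ± 0.71. Sox7, a close relative of Sox17 that marks extraembryonic endoderm, was at 45.7 to 302 CPM against 0 and 0.471 CPM. Foxa2, a pioneer factor of endoderm, rose from 1.21 and 0.314 CPM to a median of 121 CPM. Hnf4a, a nuclear receptor of visceral endoderm and liver, was the lowest of these at 17.2 to 78.3 CPM (log2 fold change 6.28 ± 0.71). The exception was Tcf7l1, a WNT-pathway repressor active in stem cells, which was lower.

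Most tested genes of definitive endoderm and of the stages before it were lower, several of them genes that the ESCs transcribe. Cxcr4, its surface marker and a chemokine receptor, was at 0 to 0.444 CPM in the ciEPCs and 1.21 and 1.10 CPM in the ESCs, and fell by 2.64 ± 0.72 on the log2 scale (adjusted p = 0.0067, and 0.058 without ESC library 2, 0.10 with limma on log2(TPM + 1) and 0.28 with the left-out library included). Cer1, a secreted NODAL and WNT antagonist of definitive and anterior visceral endoderm, had no read in any of the 11 libraries. T (Brachyury), the primitive streak factor, was at 0 CPM in the median ciEPC library and was called lower. The edgeR call was lost with the 9 libraries as separate samples (log2 fold change -2.465, adjusted p = 0.062) and with a replicate block (-2.567, adjusted p = 0.055). It was also lost with series 1 passage 2 left out (-2.316, adjusted p = 0.058). The log2 fold change was -1.378 without ESC library 1 and -1.937 without series 2. Eomes, a T-box factor of streak, trophoblast and visceral endoderm, was higher, at 21.9 to 61.2 CPM against 4.44 and 4.71 CPM (log2 fold change 2.83 ± 0.77, adjusted p = 0.006, and 0.063 without ESC library 2). Kit, a receptor tyrosine kinase that is often used with CXCR4 to sort definitive endoderm, was at 197 to 1519 CPM against 294 and 319.7 CPM. It was higher by 1.35 ± 0.42 on the log2 scale (adjusted p = 0.015), with overlap between the libraries, and was not called without either ESC library or series 2 (1.03 to 1.42, adjusted p = 0.067 to 0.10) or with passages 1 to 5 only (0.80, adjusted p = 0.14). Over the 17 tested mesendoderm and definitive endoderm genes 4 were higher and 10 lower, and the median log2 fold change was -2.48. Among the 10 were Foxh1, Lefty1, Lefty2, Nodal and Tdgf1, which the ESCs transcribe, and Tdgf1 is also counted among the core pluripotency factors. Cxcr4 and Cer1 had little or no ESC level to fall from. Gata4, Gata6, Sox17, Foxa2 and Hnf4a, all higher in the ciEPCs, are shared by definitive and extraembryonic endoderm.

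Markers of primitive and visceral endoderm were higher in 20 of 25 tested genes and lower in none (median log2 fold change 6.90; MNF-derived ciEPCs 22 higher, median 7.68). Pdgfra, the PDGF receptor of primitive endoderm and of mesenchyme, was at 698 to 1472 CPM (median 959) against 0.404 and 1.10 CPM, and in the MEF libraries at 135 to 279.7 CPM. S100g, the calcium-binding protein calbindin-D9k, had the largest fitted rise of all genes tested. It was at 293 to 1833 CPM (median 1277) in the ciEPCs with no read in either ESC library, and was at least 3387-fold higher (against a floor of 3 counts over the ESC group). Its start region is shown because it heads the rises (RefSeq, GRCm38.p6, chrX:162964600-162964849, minus strand, 5′ to 3′), with a match to the forkhead core TGTTTAC, here on the other strand, in capitals:
S100g: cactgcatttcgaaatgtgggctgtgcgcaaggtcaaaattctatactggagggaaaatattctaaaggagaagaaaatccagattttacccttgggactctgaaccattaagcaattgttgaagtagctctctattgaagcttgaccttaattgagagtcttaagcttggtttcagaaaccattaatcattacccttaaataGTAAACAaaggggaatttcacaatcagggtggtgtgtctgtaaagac
This core was found in 2.72% of the higher genes' windows, 3.46% of the lower genes' and 2.84% of all 11658 genes'. The GATA core AGATAA was in 7.67%, 7.89% and 7.61%, so for both cores the share among higher genes was close to that of all genes.

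Cubn and Amn, which together form the receptor with which visceral endoderm takes up vitamin B12 complexes and maternal proteins, were among the higher genes. Cubn was at 105 to 1300 CPM against 0.404 and 0.314 CPM and Amn at 8.62 to 244 CPM against 0.404 and 0.157 CPM. Dab2, their endocytic adaptor and a classical primitive endoderm marker, was at 56.9 to 373 CPM (median 294) against 1.21 and 0 CPM, a ratio of 739 (95% counting interval 253 to 3583). The MEF libraries held Dab2 at 140 to 200 CPM, within the ciEPC range. Ttr and Afp, products of mature visceral endoderm, were not called, and they do not stand for all such products. Ttr, the thyroxine carrier, was at 0 to 3.11 CPM and Afp, alpha-fetoprotein, at 0.331 to 4.59 CPM (adjusted p = 0.17 and 0.052), and both ESC libraries had at most 1 read of either. In the MNF-derived ciEPCs Afp was called higher than in the ESCs, and Afp differed between the MEF- and MNF-derived cells (log2 difference -3.25 ± 0.74, adjusted p = 0.024).

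Basement membrane genes took a larger share of the transcripts in ciEPCs than in ESCs. The 23 genes of the list summed to 12370 to 34850 TPM in the ciEPC libraries (median 19640), or 1.24% to 3.48% of all transcripts, and to 1385 and 1295 TPM in the ESC libraries. In the MEF libraries the same genes summed to 5794 to 6677 TPM. Of the 21 that were tested 13 were higher and 4 lower (median log2 fold change 2.21). Col4a1 and Col4a2, neighbouring genes on chromosome 8 for the chains of type IV collagen, were at 6072 to 17500 and 3968 to 13130 CPM in the ciEPCs, against 5.25 and 2.83 and 1.62 and 2.52 CPM in the ESCs. The log2 fold changes were 11.48 ± 0.73 and 11.78 ± 0.76 (adjusted p = 1.3e-08 and 1.4e-08). The MEF libraries held Col4a1 at 1967 to 2167 CPM and Col4a2 at 1495 to 1670 CPM. Lama1 and Lamb1, the laminin-111 chains that parietal endoderm secretes, were at medians of 7099 and 4691 CPM against 139 and 133 and 80.4 and 64.6 CPM. Sparc, a matrix protein of the same membrane, was at 3803 to 9744 CPM against 171 and 210.3 CPM. On the per-length TPM scale Sparc (median 5459) and S100g (median 6387) were among the 6 most abundant ciEPC genes by mean, beside housekeeping genes such as Tpt1, and Eef1a1 and Gapdh, which were also among the 6 most abundant in the ESCs. Both nidogens, which link laminin to collagen IV, were lower in the ciEPCs. Nid1 was at 2.91 to 474 CPM (median 28.6) against 345 and 429.9 CPM, and its highest value was in series 1 passage 2.

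Parietal endoderm markers as a list were higher in 18 of 21 tested genes and lower in 2, the nidogens. The list summed to 16980 to 41330 TPM in the ciEPC libraries and to 1606 and 1434 TPM in the ESCs. The MEF libraries, at 14660 to 16790 TPM, came close to the lowest ciEPC library. Pth1r, the receptor for parathyroid hormone-related protein that switches primitive endoderm to parietal fate, was at 389.6 to 757 CPM (median 558), with 1 read in the 2 ESC libraries. Thbd, Plat and Fst belong to the same list; Fst, the activin antagonist follistatin, was at 252 to 899 CPM against 8.48 and 9.12 CPM. Of 14 tested basement membrane receptors 5 were higher, with Itga3, the laminin-binding integrin chain, from 9.29 and 9.43 CPM to a median of 415 CPM as the largest.

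Genes for taking up and degrading proteins were higher alongside. Of 15 tested genes of endocytic uptake 13 were higher and 1 was lower, and of 20 lysosome genes 15 were higher and 1 was lower (medians 2.48 and 1.58). Clcn5, the chloride-proton exchanger of endosomes in absorptive epithelia, was at 187 to 317 CPM against 10.5 and 9.90 CPM, a log2 fold change of 4.55 ± 0.23. Ctsl, a lysosomal protease, rose to 1604 to 2740 CPM from 156 and 165 CPM, and Ctsh, another, from at most 0.314 CPM to a median of 326 CPM. Aquaporins rose too, in 5 of 7 tested members. Aqp8 was at 555 to 1158 CPM against 0.808 and 0 CPM, and Aqp1, with no ESC read, at 13.8 to 401 CPM. Of 13 unfolded protein response genes 7 were higher and none lower. Hspa5, the main chaperone of the endoplasmic reticulum, had 817 to 2401 CPM against 501 and 456 CPM. Its level in the MEF libraries, 1625 to 1689 CPM, lay within the ciEPC range.

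**Figure D4:**
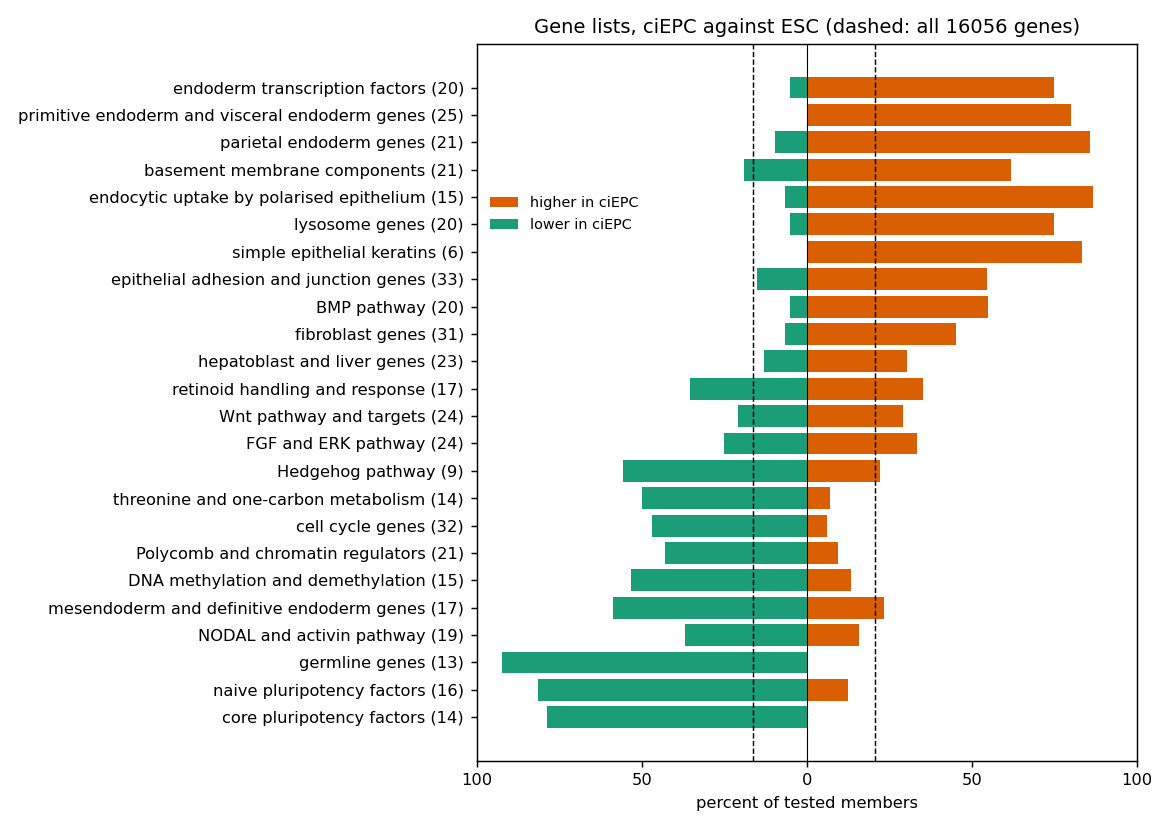
Share of the tested members of each of 24 gene lists that were higher (bars to the right) or lower (bars to the left) in ciEPCs than in ESCs, in percent, with the number of tested members beside each name. Dashed lines mark the shares over all 16056 genes, 20.6% and 16.3%. The lists of endoderm transcription factors, primitive and visceral endoderm, parietal endoderm, basement membrane, endocytic uptake and keratins reach mainly to the right. The pluripotency, germline and cell cycle lists and the mesendoderm and definitive endoderm list reach mainly to the left.

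The ciEPCs carried an epithelial programme different from that of ESCs, which are themselves joined by E-cadherin. Cdh1, the E-cadherin gene, was lower in the ciEPCs, at 66.5 to 487 CPM (median 231) against 716 and 706 CPM (log2 fold change -1.49 ± 0.50, adjusted p = 0.021), and at 0 to 2.98 CPM in the MEF libraries. All 9 ciEPC libraries lay below both ESC libraries, but with any 1 of the 4 tested samples left out the adjusted p was 0.059 to 0.095. Epcam, an adhesion molecule of both epithelia and stem cells, was higher, at 150.2 to 472 CPM against 90.5 and 64.8 CPM (log2 fold change 1.83 ± 0.42). Cdh2, N-cadherin, was low in both groups, at a ciEPC median of 6.63 CPM against 5.25 and 3.30 CPM, and was not called. Of 33 tested junction genes 18 were higher and 5 lower (median log2 fold change 1.46), and 2 were lower without either ESC library or series 2. Esrp1, which sets epithelial splicing, rose to 72.8 to 143 CPM from 4.85 and 3.77 CPM, and Grhl2, an epithelial transcription factor, by 3.60 ± 0.38 on the log2 scale. Of 6 simple epithelial keratins 5 were higher: Krt8 was at 496 to 878 CPM against 8.48 and 6.76 CPM, its partner Krt18 at 115 to 502 against 3.64 and 2.99 CPM, and Krt19 at 37.8 to 235 CPM against 0 and 0.157 CPM. Krt7 ranged from 22.4 CPM to 1166 CPM among the ciEPC libraries, and was the 1 tested keratin of 6 called different between MEF- and MNF-derived cells (log2 difference 4.99 ± 0.56, adjusted p = 2.2e-04).

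The signalling genes that couple epiblast and primitive endoderm were split between the groups. Fgf4, the ligand that ESCs secrete, was at 267 and 279 CPM in the ESCs with no read in any ciEPC library, at least 2232-fold lower and the largest fitted fall of all genes tested. The FGF receptor genes did not move together. Fgfr4 was higher, at 111 to 233 CPM against 1.21 and 1.73 CPM, and so was Fgfr3, at 19.9 to 72.3 CPM against 0 and 0.157 CPM. Fgfr2 was higher by 1.73 ± 0.59 on the log2 scale (adjusted p = 0.024), a call lost with any 1 of the 4 tested samples left out (adjusted p = 0.064 to 0.11) and with limma (adjusted p = 0.072). Fgfr1 was lower, with a ciEPC median of 13.3 CPM and 86.2 CPM in series 1 passage 2, against 96.6 and 83.8 CPM in the ESCs (log2 fold change -2.18 ± 0.38, adjusted p = 1.8e-04). Etv5, a target of ERK signalling, fell by 3.99 ± 0.41 on the log2 scale. Over the 24 tested genes of the FGF and ERK pathway 8 were higher and 6 lower. Pdgfc, a ligand of PDGFRA, was at 0 to 2.65 CPM in the ciEPCs and 34.3 and 44.0 CPM in the ESCs. Kitl, the ligand of KIT, was higher as well, at 48.0 to 202 CPM in ciEPCs against 1.62 and 0.943 CPM.

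In the NODAL pathway the ligand gene, its feedback antagonists, the co-receptor gene Tdgf1 and the nuclear partner Foxh1 were lower. Nodal was at 0 to 2.29 CPM against 71.5 and 89.4 CPM in the ESCs, Lefty1 and Lefty2, its feedback antagonists, at no more than 2.31 and 0.331 CPM against 198 and 214 and 331 and 475 CPM, and Foxh1, the nuclear partner of its SMADs, had no ciEPC read against 44.0 and 41.0 CPM. The activin receptor genes and the signal carriers Smad2 and Smad3 were not called, each with a change under 2-fold, and of its 19 tested genes 3 were higher (5 without series 2) and 7 lower. The BMP pathway moved the other way, with 11 of 20 tested genes higher and 1 lower (median log2 fold change 1.33). Bmp2, a ligand that visceral endoderm makes, was at 35.2 to 206 CPM against 0 and 0.314 CPM, and the target Id1 rose by 4.21 ± 0.62 on the log2 scale. In the Hedgehog pathway the ligand Ihh, another visceral endoderm product, was at 137 to 387 CPM against 1.21 and 1.42 CPM. Its response genes were lower: Ptch1, the receptor that is also a target, fell by 2.21 ± 0.34, and the effector Gli2 fell by 7.13 ± 0.60 on the log2 scale. Of 9 Hedgehog genes 2 were higher and 5 lower, and 3 were lower without ESC library 2 or without series 1. Of 24 Wnt pathway genes 7 were higher and 5 lower, beside 20.6% and 16.3% of all genes tested. Wnt11 was at 85.9 to 219.9 CPM against 2.02 and 1.10 CPM. Within the LIF axis, which supports ESC self-renewal, Stat3 and Socs3 were higher (log2 fold changes 1.18 ± 0.18 and 3.39 ± 0.49; that of Stat3 was under 2-fold without series 2), while the STAT3 target Pim1 was lower, at 4.29 to 11.3 CPM against 153 and 187 CPM. Cyp26a1, the enzyme that degrades retinoic acid, was the second largest rise, at 111 to 668 CPM (median 459) with no ESC read. Of 17 retinoid genes 6 were higher and 6 lower (3 without series 2), among the latter the receptor Rarg.

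Genes of several differentiated tissues appeared among the largest rises. Gkn1 and Gkn2, gastrokines of the stomach lining, were at 53.3 to 442 and 47.0 to 252 CPM with no ESC read, and were at least 618-fold and 440.2-fold higher. Tff1, a trefoil peptide of stomach mucus, was at 17.5 to 326 CPM with no ESC read. Cdh5 (VE-cadherin), the junction protein of endothelium, was at 21.5 to 351 CPM with no ESC read, and Runx1, a blood factor, at 79.1 to 162 CPM against 0 and 0.314 CPM. Pecam1, an endothelial adhesion molecule that ESCs also carry, was lower, at 0 to 2.87 CPM against 88.5 and 122 CPM, so the endothelial list (4 of 7 higher, 1 lower) did not move together. The remaining rises of the top 12 were Otof, Ramp1, Wfdc1, Robo2, Aqp1 and Pth1r. Liver products stayed low: Alb, albumin, was at 0 to 3.36 CPM. The liver list had 7 of 23 tested genes higher (fewer without ESC library 2) and 3 lower, beside 20.6% and 16.3% of all genes tested. At its head was the fetal growth factor Igf2 (434 to 1948 CPM against 0 and 0.314 CPM). The MEF libraries held still more Igf2, at 4879 to 10160 CPM. No macrophage gene of 9 tested was called in either direction at adjusted p under 0.05 by edgeR (1 had an unadjusted p under 0.05 and 2 passed with DESeq2). Of 18 tested trophoblast genes 9 were higher and 1 lower (5 and 1 in MNF-derived ciEPCs). The 3 trophoblast markers fixed for the label check went the other way. They summed to 0.37 to 9.9 TPM in the ciEPC libraries and to 64.5 and 55.8 TPM in the ESCs. The placental prolactins Prl2c3 and Prl2c2 rested on 1 culture: Prl2c3 was at 933 CPM in series 1 passage 2, 118 CPM in passage 3 and at most 3.40 CPM in the other 7 libraries.

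Fibroblast transcripts depended on the same library. No overlap between the 9 ciEPC and 2 ESC libraries was seen for 5 of 31 tested fibroblast genes (over all 16056 genes tested, for 3680 higher and 3837 lower). Of the 31, 14 were called higher and 2 lower in the ciEPCs. With series 1 passage 2 left out the counts were 8 higher and 2 lower, and without all of series 1 or without ESC library 2 the higher members were 7 and 6. The 7 fibroblast markers fixed for the label check summed to 282 TPM in series 1 passage 2, to 5.0 to 46.5 TPM in the other 8 libraries and to 7.95 and 3.96 TPM in the ESCs. Col6a1 and Col6a2, chains of type VI collagen, stayed above the ESC level beyond that library, at 155 and 219.8 CPM in series 2 passage 10, but had no read in series 2 passage 1. Acta2, smooth muscle actin, was at most 0.602 CPM in any ciEPC library. How far carried-over fibroblasts contribute to the remaining members was not tested.

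Cell cycle and chromatin genes that differed were mostly lower in the ciEPCs. Of 32 tested cell cycle genes 2 were higher, 15 were lower and 15 were not called (median log2 fold change -1.01). Mcm2, a subunit of the replicative helicase, was at 87.5 to 191 CPM against 489.7 and 527 CPM and fell by 1.76 ± 0.23 on the log2 scale. The 2 higher members were Ccnd2, cyclin D2 (11.2 to 212 CPM against 0.404 and 1.10 CPM), and Myc (24.4 to 84.4 against 5.25 and 3.93 CPM), while Ccnd3, cyclin D3, was lower. Trp53, the p53 gene, fell by 2.68 ± 0.30. The cell cycle inhibitor Cdkn1c (p57) was at 54.5 to 369 CPM against 1.62 and 3.14 CPM. Of 15 DNA methylation genes 2 were higher and 8 lower, and the TET dioxygenases, which oxidise methylated cytosine, changed places. Tet1 was at 15.9 to 46.0 CPM against 469 and 546 CPM, and Tet3 at 71.2 to 264 CPM against 14.6 and 14.9 CPM (log2 fold changes -4.08 ± 0.42 and 3.50 ± 0.19). Zfp57 and Trim28 together guard imprinted methylation. Zfp57 fell by 5.35 ± 0.38 and Trim28 fell by 2.02 ± 0.21. Of 21 Polycomb and chromatin genes 2 were higher, 10 were not called and 9 were lower, among the latter the core subunits Eed and Suz12 (-1.98 ± 0.23 and -1.68 ± 0.26) and Cbx7, the Polycomb reader of stem cells (2.99 to 45.4 CPM against 189 and 233 CPM). Of 26 imprinted genes 9 were higher and 7 lower. Peg10, a retrotransposon-derived placental gene, was at 525 to 6589 CPM against 14.9 and 22.5 CPM, while Zdbf2 fell by 6.74 ± 0.41 and Snrpn fell by 3.86 ± 0.40.

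Metabolic and immune genes differed in part. Tdh, threonine dehydrogenase, on which mouse ESCs depend for one-carbon units, was at 4.0 to 284 CPM (median 36.3) against 654 and 778 CPM, and 7 of 14 threonine and one-carbon genes were lower with 1 higher. Most of the 19 glycolysis genes were not called (2 higher, 3 lower), and of 22 cholesterol synthesis genes 6 were higher and none lower. Over all genes tested 20.6% were higher and 16.3% lower. MHC class I, which ESCs hold low, was higher in 6 of 9 genes. H2-K1 was at 289.6 to 562 CPM against 15.3 and 20.6 CPM and its light chain B2m at 148 to 364 CPM against 8.89 and 8.80 CPM (log2 fold changes 4.60 ± 0.29 and 4.68 ± 0.30). In the MEF libraries H2-K1 was at 30.5 to 37.5 CPM and B2m at 271 to 281 CPM. Among 17 interferon response genes 4 were higher and 4 lower, beside the 20.6% and 16.3% of all genes tested. Ifitm1, Ifitm2 and Ifitm3, membrane proteins that restrict virus entry and are constitutive in stem cells, were lower, with Ifitm3 at 0 to 68.9 CPM against 259 and 273 CPM.

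MNF-derived ciEPCs, which share the implied length of the ESC libraries, were set against the same 2 ESC libraries. Because the ESCs are shared, the values are given side by side. Pou5f1 had a log2 fold change of -13.19 in MEF-derived and -10.36 in MNF-derived cells, Nanog -11.20 and -10.44, Gata4 9.36 and 9.22, Sox17 8.66 and 9.02, and Col4a1 11.48 and 10.96. The difference between both kinds of ciEPC was tested directly, and fewer genes passed than in either comparison with ESCs: 509 genes (3.17%) were higher in MEF-derived cells and 165 (1.03%) lower. These counts fell to 131 and 53 without MNF-derived library 1, to 74 and 47 without library 2 and to 337 and 54 without series 2 of the MEF-derived cells. Among them Zfp42 was lower in MEF-derived cells (log2 difference -3.26 ± 0.86, adjusted p = 0.048), and Dnmt3b was higher (1.31 ± 0.33, adjusted p = 0.028). Kitl (2.36 ± 0.48), Cdkn1c (2.65 ± 0.59), Aqp1 (3.37 ± 0.60) and Ramp1 (3.26 ± 0.71) were also higher in MEF-derived cells. Implied length, strain and fibroblast source all separate these groups and cannot be told apart. The Y-linked sum was 0.843 and 1.92 CPM in the MNF-derived libraries, with Xist at 2137 and 2291 CPM, so they lay with series 1 passage 22 and apart from the other 8 MEF-derived libraries in these transcripts. The part of this in the other differences was not tested.

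**Figure D5:**
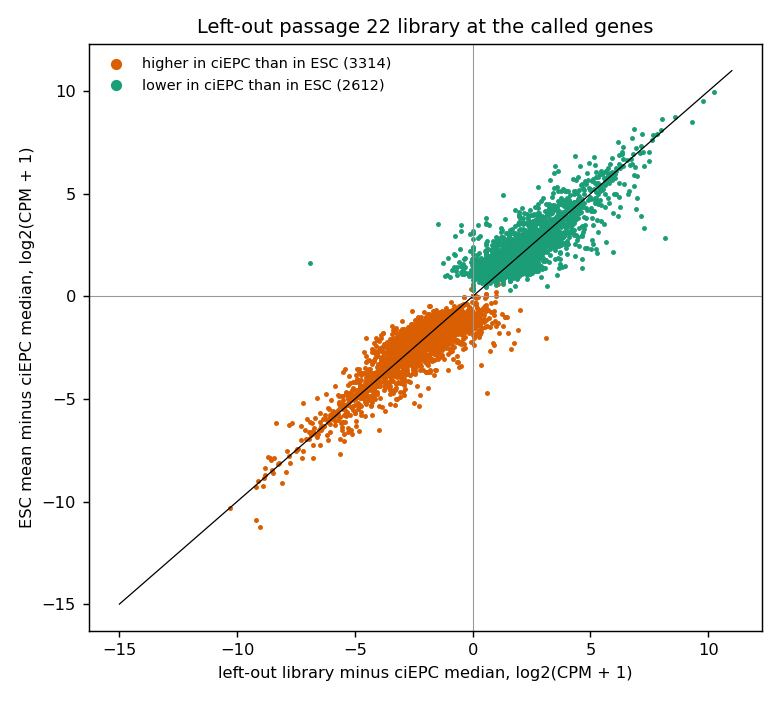
Position of the left-out series 2 passage 22 library (x axis: its level minus the ciEPC median) against the ESCs (y axis: ESC mean minus ciEPC median), in log2(CPM + 1) differences, for the 3314 higher and 2612 lower genes. Points on the diagonal have the same level in the left-out library as in the ESCs; for 2910 higher and 2288 lower genes the library was nearer to the ESCs than to the ciEPCs.

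The left-out library shows at single genes what including it does. It held Nanog at 865 CPM, Fgf4 at 254 CPM and Dppa3 at 108 CPM, each above every one of the 9 ciEPC libraries. Gata4 was at 2.46 CPM, Col4a1 at 15.2 CPM and S100g at 0 CPM. Its germline transcripts exceeded those of the ESCs for some genes, with Dazl at 121 CPM against 10.5 and 25.0 CPM and Sohlh2 at 113 CPM against 34.3 and 47.5 CPM. With it added to series 2, the log2 fold change of Pou5f1 was -2.99 (adjusted p = 0.083) and that of Fgf4 -3.39 (adjusted p = 0.078), and neither was called. What the library is was not tested.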

How the data were processed

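RNA was taken with Trizol and made into TruSeq libraries, per the labels' protocols. The authors deposited expected counts per gene and TPM from RSEM 1.2.4 on mm10, per the submitters' processing notes; which aligner and which annotation release were used is not given in the sources used here. The series-wide table of 31673 genes was used. Gene positions came from GENCODE M21 (GRCm38).

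Expected counts were rounded. The passages of a ciEPC series were summed, because libraries with the same series number in their labels were read as 1 culture line, so that 2 samples stood against 2 ESC libraries. A single fit over 20 samples in 9 groups used TMM scaling and filterByExpr (minimum count 10), which left 16056 genes, and the edgeR 4.0.16 quasi-likelihood test (R 4.3.3) with Benjamini-Hochberg adjustment. Calls needed both an adjusted p below 0.05 and a 2-fold or larger fitted change. The alternatives used limma 3.58.1 on log2(TPM + 1) and DESeq2 1.42.0. Library levels are CPM after TMM scaling, and sums over lists are TPM. A fold against a group without reads was computed against 3 counts over that group. Ratios from few reads have exact 95% Clopper-Pearson intervals, and intervals and floors cover counting error only. On simulated counts for MEF-derived ciEPCs against ESCs, the fit recovered 26 of the 67 genes changed 2-fold, 61 of the 67 changed 4-fold and 65 of the 66 changed 8-fold, and made 8 calls among 15459 unchanged genes.

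The members, the 48 gene lists (746 genes, of which 691 were tested) and the markers were chosen with earlier results of these data known. Genes named were the 12 largest rises and the 12 largest falls among called genes without overlap whose higher group had a mean of 32 CPM or more, up to 5 members of each list by adjusted p, defining members that were not called, the 6 genes highest in mean TPM in each group, and a fixed set of marker genes. Eif2s3y, Uty, Klf5, Tbx3, Tcf7l1, Trim71, Nid1, Plat, Thbd, Smad2, Smad3, Fgfr1, Fgfr2 and Prl2c2 were named after their values were seen. So were Dusp4 and Etv4, which are not among the genes counted in the closing sections. Promoter windows from RefSeq (GRCm38.p6) matched 11658 of the tested genes.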

Additional observations from a re-analysis of the deposited data

Results flagged for a closer look

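In 18 of 111 genes tested, 1 of the 9 ciEPC libraries lay apart from the other 8 (Dixon's gap rule at its 95% critical value, on CPM without log). The rule assumes independent values with a normal spread. These libraries are passages of 2 series, and all 18 values set apart were the highest of their gene. The share to be met by chance is therefore not known. Series 1 passage 2 was the library apart for 10 of them. It was high for Prl2c2 (615 CPM), Prl2c3 (933 CPM), Col1a1 (128.6 CPM), Col6a1 (400.6 CPM), Nid1 (473.5 CPM), Bmp2 (206.4 CPM), Cbx7 (45.4 CPM), Smad3 (136.5 CPM), Fgfr1 (86.2 CPM) and Rarg (10.3 CPM). Series 1 passage 22 was high for Sox17 (932.9 CPM), Fst (898.9 CPM) and Xist (3305 CPM). Series 1 passage 10 was high for Eomes (61.2 CPM) and Tfcp2l1 (87.3 CPM), series 1 passage 3 for Igf2 (1948 CPM) and Tdh (284.5 CPM), and series 2 passage 10 for Aqp1 (401.1 CPM).

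For 18 named genes the change against the ESCs differed between MEF-derived and MNF-derived ciEPCs (edgeR, log2 difference MEF-derived minus MNF-derived, with its adjusted p). The Y-linked genes were higher in the MEF-derived cells: Ddx3y by 9.86 (0.011), Eif2s3y by 10.79 (0.0032) and Kdm5d by 4.64 (0.014). So were the keratin Krt7 by 4.99 (0.00022), the collagens Col6a1 by 1.76 (0.031) and Col6a2 by 2.33 (0.021), the interferon-induced Ifitm1 by 2.76 (0.0083) and Ifitm2 by 3.03 (0.00086), and the imprinted Cdkn1c by 2.65 (0.015) and Snrpn by 2.85 (0.0086). Aqp1 was higher by 3.37 (0.0052), Ramp1 by 3.26 (0.017), Kitl by 2.36 (0.010), Fgfr1 by 1.53 (0.038), Dnmt3b by 1.31 (0.028) and Prl2c3 by 7.78 (0.043). Afp had a difference of -3.25 (0.024) and Zfp42 one of -3.26 (0.048). The Prl2c3 value rests on series 1 passages 2 and 3.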

How the results depend on the processing

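Against the ESCs, the counts of genes higher and lower in either kind of ciEPC, and of gene list members higher (231) and lower (163), stayed within 1.5 times under every alternative run. The range was 2603 to 4196 higher genes and 1964 to 3717 lower genes in MEF-derived ciEPCs; the counts with a sample left out were 2603 to 3270 and 2069 to 2565. Of 1883 values of the 118 called genes named in the text, none changed sign and 55 lost the call, 10 of these with series 2 passage 22 included, and 99 of the genes kept the call in every alternative that gave a value.

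The direct difference between MEF- and MNF-derived ciEPCs moved most. The higher genes (509) were 210 with the 9 libraries as separate samples, 251 with limma and 233 with passages 1 to 5 only, and 74 to 344 with a sample left out. The lower genes (165) were 293 with no fold minimum, 287 when the fit held the compared groups alone and 75 with passages 1 to 5 only, and 47 to 166 with a sample left out. The causes were not tested. A group left with 1 sample was assumed to vary like the others.

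The replicate numbers were not taken to pair the samples: deviations of same-numbered samples correlated by 0.050 for MEF-derived ciEPCs and ESCs, and by -0.059 and -0.057 for the other pairs of groups. With the number as a replicate block, 3224 genes were higher and 2564 lower in MEF-derived ciEPCs than in ESCs.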
